A study of Mus musculus with 8 samples.

Results

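The regions described here were bound by YTHDF3 in starved mouse embryonic fibroblasts (MEFs) and were not called under normal conditions. Every deposited peak in the 4 lists that reached a 2-fold IP value over input was kept, and peaks were merged where they shared 1 bp or more. A region was a member when both starved lists held a peak in it and neither normal list did. Of 40214 merged regions, 1900 were members (4.72%), against 6621 regions called in all 4 lists and 530 called in both normal lists and in neither starved list. The members were chosen by the IP and input values of all 4 lists, which fixed the presence of a peak in the starved lists and its absence from the normal lists, so the reads and folds of the members in the starved lists are given as a description, with no test.

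RNA bound to YTHDF3 was immunoprecipitated (IP) with an antibody to the endogenous protein from wild type C57BL/6 MEFs and sequenced beside input RNA prepared without antibody. The MEFs came from embryos at 13.5 days post-coitum, were used after 5 to 6 passages and were grown in high glucose DMEM with 10% FBS. Normal cells stayed in this medium, and starved cells spent 2 h in a nutrient-deprived medium, with 2 replicates per condition. Each list compares the IP library of 1 replicate with an input library, and nothing in the labels says that replicates came from separate embryos or cultures.

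The base m6A is a methylated adenosine that a METTL3-containing complex places in mRNA, mostly within a short sequence around GGAC, and that proteins with a YTH domain bind. YTHDF3 is a cytoplasmic member of this reader family and is known to act on the translation and decay of the mRNAs it binds. Nutrient deprivation is a classical inducer of autophagy and shifts transcription through FOXO, ATF4 and other factors, so genes of these pathways were looked up among the members by fixed lists.

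The members with the most IP reads and the members of pathway genes that the results turn on are shown by 30 bases of mm10 around the GGAC nearest to the region's center, on the strand of the gene. Bases are in lower case and the capitals mark GGAC, the core of the m6A consensus.
Tnc (chr4:64046827-64046856, minus strand): gggaagacgctagGGACcgcgcgcttggga
Tln1 (chr4:43533649-43533678, minus strand): gaacagagtgggtGGACccagaggacccta
Eif4g1, first member shown (chr16:20673621-20673650, plus strand): taggccgcactgtGGACttattcttaaccg
Eif4g1, second member shown (chr16:20675502-20675531, plus strand): ctactatatccctGGACaggtgaggctggg
Brd2 (chr17:34115399-34115428, minus strand): cctgcattctgctGGACccccactccttgc
Yap1 (chr9:7934035-7934064, minus strand): tggaggacggaggGGACccacgctgaagac
Bcl2l1 (chr2:152781578-152781607, minus strand): gataatgagacaaGGACcagaacctcctcc
Abcc1 (chr16:14474156-14474185, plus strand): cacagctttcacaGGACctgcttaagacac
Mfn2 (chr4:147874717-147874746, minus strand): ttgtgacgacaagGGACttgcctcccttct
Col5a1 (chr2:27975587-27975616, plus strand): gccaggcgctgatGGACccccggtgagtag
Atg2a (chr19:6244687-6244716, plus strand): gaccaggggctgcGGACtctcagagttggg
Sesn1 (chr10:41810370-41810399, plus strand): cactgtgattggcGGACactgctcccccgg
Cdkn2b (chr4:89310791-89310820, minus strand): tgccacagaccggGGACaagggcatgttgg
Bmf (chr2:118546872-118546901, minus strand): cccagagccagctGGACtgtcccctcagtc
Foxo1 (chr3:52348511-52348540, plus strand): gccagctataaatGGACatttattttgaaa
The windows of Tnc, Cdkn2b, Yap1 and Foxo1 lie in regions that the deposited annotation places in untranslated regions, and the windows of Col5a1, Atg2a and Bmf lie in regions placed in exons. Each of these 15 windows overlaps an annotated exon of its gene, and a window can extend past the end of the exon.

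The motif was about as frequent in the members as in the common regions. GGAC was present within the central 200 bp, on the strand of the gene, in 1125 of the 1863 members that could be placed on a gene (60.4%). The share was 61.7% in regions called in all 4 lists, 50.2% in regions called in both normal lists only and 56.4% over all regions. Over whole regions the members held 4.44 GGAC per kb, against 4.41 in regions called in all 4 lists and 3.70 in regions called in both normal lists only. The median GC content of the central 200 bp was 53% in the members and 54.5% in regions called in all 4 lists. A match describes the sequence and does not show a methylated site.

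The lists differed in size and in scaling. Normal MEFs gave 17546 peaks (replicate 1) and 22189 peaks (replicate 2), starved MEFs gave 23294 and 24911 peaks, and each of these had a fold of at least 2 as deposited, so the fold threshold removed none. The deposited IP and input values are reads multiplied by 1 factor each, and the input factor over the IP factor was 1.24 and 1.00 in the normal lists and 2.33 and 1.5 in the starved lists. A starved region therefore needed more IP reads per input read to reach a given fold. At no input read, the lowest number of IP reads called was 13 and 11 in the normal lists and 17 and 14 in the starved lists. In regions called in all 4 lists, the IP reads of the normal list summed to 0.575 (replicate 1) and 0.757 (replicate 2) of those of the starved list. Scaled by these ratios, the starved IP reads of 171 members in replicate 1 and 26 members in replicate 2 fell under the lowest number called in the normal list, which left 1716 members that reached it in both. Reads outside called peaks are not in the lists, so the normal reads of a member are unknown and no fold between conditions can be given for it. Of the fibroblast markers, 5 of 10 genes (Col1a2, Col3a1, Fn1, Pdgfra and Pdgfrb) had a region in some list. None of the 11 markers of blood, endothelium, epithelium and neural cells had a region, although a list of bound regions does not show which genes are expressed.

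**Figure D1:**
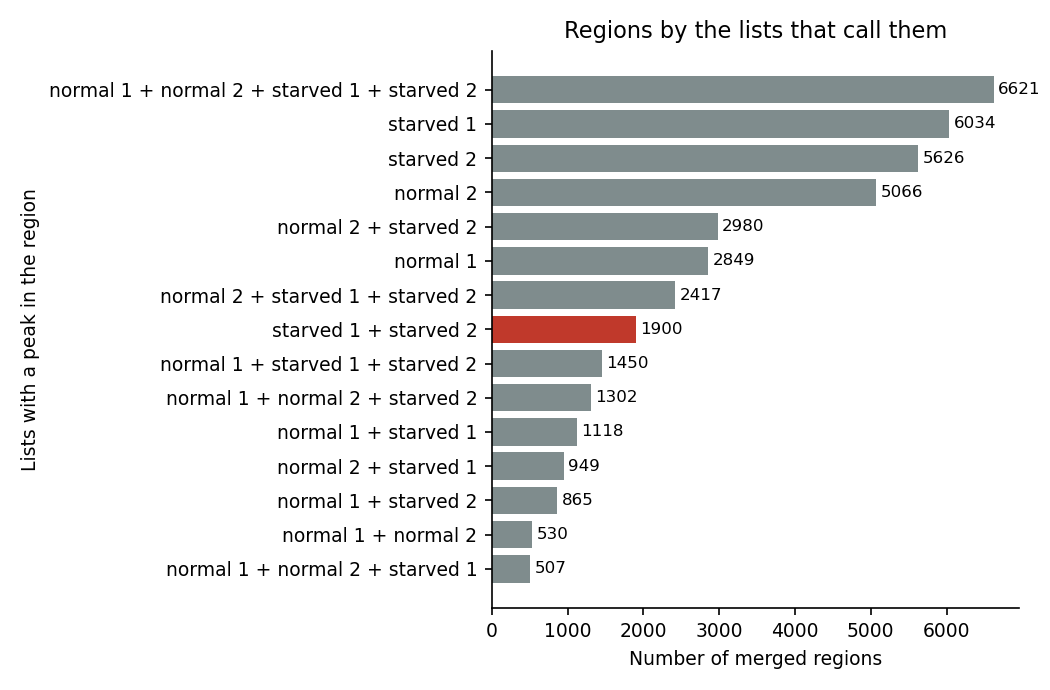
Number of merged regions (horizontal axis) for each combination of lists with a peak in the region (vertical axis). The 1900 members, in red, rank eighth among the 15 combinations, and single-list regions such as the 6034 of starved replicate 1 are more numerous.

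Most members were short and held few reads. The median member was 440 bp long, against 820 bp for regions called in all 4 lists and 430 bp for regions called in both normal lists only. In starved replicate 1 the members held a median of 79 IP reads, with 24 at the 10th and 274 at the 90th percentile, and a median of 9 input reads. In starved replicate 2 the medians were 84 IP reads and 18 input reads, with IP reads from 27 to 294 between the 10th and 90th percentiles. Regions called in all 4 lists held a median of 446 and 452 IP reads and of 67 and 95 input reads in the same lists. Regions called in both normal lists only also held few reads in normal replicates 1 and 2. Their medians there were 53 and 75 IP reads and 12.5 and 29.5 input reads. The density of IP reads over the covered sequence was lower too, with 503 and 468 reads per kb in the members against 1684 and 1524 reads per kb. The input density was 84.1 and 122 reads per kb in the members, against 262 and 324 reads per kb. The members thus had fewer reads in both the IP and the input, and not in the IP alone.

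**Figure D2:**
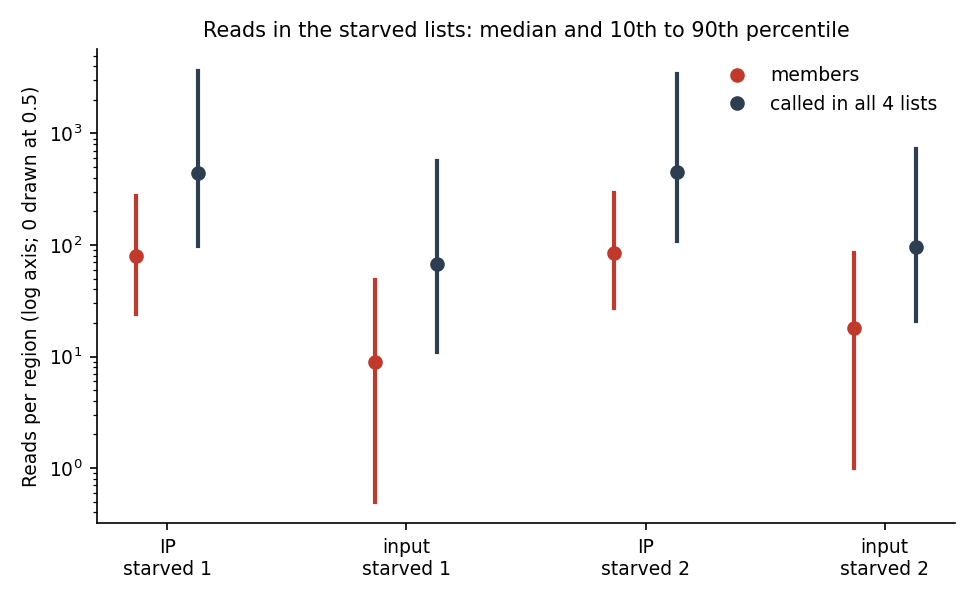
Reads per region in the 2 starved lists on a log axis, for the IP and the input; points are medians and lines run from the 10th to the 90th percentile. The members (red) have medians of 79 and 84 IP reads, under the medians of 446 and 452 in regions called in all 4 lists (blue).

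The fold of the members was higher than that of the common regions in starved replicate 1 and about the same in starved replicate 2, with a wider spread in both. The fold is the deposited IP value over the input value, with input values under 3 raised to 3. Its median was 3.71 and 3.11 in starved replicates 1 and 2, against 2.82 and 3.16 in regions called in all 4 lists. Regions called in both normal lists only had median folds of 3.45 and 2.73 in normal replicates 1 and 2, with 90th percentiles of 6.86 and 6. Those of the members were 7.27 and 6.80 in the starved lists, so these traits were not particular to the members. In 417 members (21.9%) of starved replicate 1 and 275 members (14.5%) of starved replicate 2 the input value was at most 3. There the fold is a lower bound, and both folds were such bounds in 191 members. The shares were 26.2% and 12.8% in normal replicates 1 and 2 for regions called in both normal lists only. The 2 starved lists ranked the members alike in part, with Pearson's r = 0.61 for log2 folds and 0.76 for log2 IP reads across the 1900 members, which share the libraries and the threshold. By the lower of its 2 folds, 702 members (36.9%) lay under 2.5, 724 lay between 2.5 and 4, and 474 (24.9%) reached 4. Of the regions called in all 4 lists, 38.2% lay under 2.5 and 7.90% reached 4 by the same measure. The members just inside the threshold were Slc39a6, a zinc transporter gene (folds 2.41 and 2.01), and a region in exon 4 of Smad1, which encodes a BMP signal transducer (2.01 and 2.39). The lists hold peaks above the threshold alone, so the closest regions outside were those kept out by a single weak normal peak. They were a region of Rxra, a nuclear receptor gene, with a fold of 2.01 in normal replicate 1 and of 2.02 and 2.05 in the starved lists, and a region of Cul7, which encodes a cullin of ubiquitin ligases, with 2.01 against 2.04 and 2.04.

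**Figure D3:**
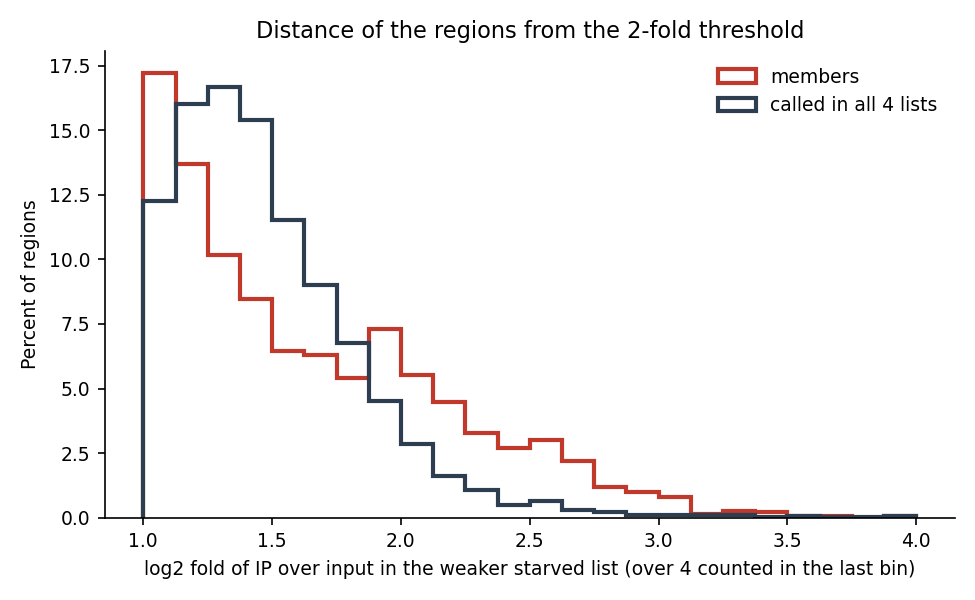
Percent of regions (vertical axis) by the log2 of the IP/input fold in the starved list where it is lower (horizontal axis), for the members in red and the regions called in all 4 lists in blue. The members are most frequent in the lowest bin, next to the threshold, and 24.9% of them reach a fold of 4, against 7.90% of the regions called in all 4 lists. Under a fold of 2.5 lie 36.9% of the members and 38.2% of the regions called in all 4 lists.

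The members with the most reads lay near the threshold. In the 5′ untranslated region of Tnc, which encodes the matrix glycoprotein tenascin C, starved replicate 1 held 34579 IP reads over 6907 input reads and starved replicate 2 held 22350 over 6389. Because of the factors these reads are folds of 2.15 and 2.33. Tnc also had 5 regions called in all 4 lists. A region of Tln1, the gene of the integrin-binding protein talin 1, held 10727 and 8609 IP reads over 2272 and 2794 input reads, with folds of 2.02 and 2.05; the deposited name of this region is that of its neighbour Tpm2. Both read depths and both folds of this region were alike between the starved replicates.

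Eif4g1, which encodes the scaffold of the cap-binding complex of translation, had 3 members. The one with most reads held 6922 and 6454 IP reads over 1417 and 1720 input reads (folds 2.09 and 2.5), and the next held 4449 and 4594 over 938 and 1334 (folds 2.03 and 2.30). Brd2, a BET bromodomain gene, held 6097 and 5930 IP reads over 1232 and 1716 input reads, with folds of 2.12 and 2.30. The 3′ untranslated region of Yap1, the co-activator of the Hippo pathway, held 6300 and 5306 IP reads over 1162 and 1595 input reads (folds 2.32 and 2.22) and carries the deposited name Birc3. For these genes the IP exceeded the input by a small margin over many reads.

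The same held for 4 further genes. Bcl2l1, which encodes the anti-apoptotic protein BCL-XL, held 3611 and 3206 IP reads over 701 and 1048 input reads (folds 2.21 and 2.04). Abcc1, an export pump, held 3071 and 3925 IP reads over 653 and 1278 input reads (folds 2.02 and 2.05). Mfn2, required for mitochondrial fusion, held 3474 and 3192 IP reads over 734 and 1045 input reads (folds 2.03 and 2.04). A region in exon 25 of Col5a1, a fibrillar collagen gene, held 2954 and 2912 IP reads over 587 and 816 input reads (folds 2.16 and 2.38). In all, 31 members had at least 1000 IP reads in both starved lists, with a median weaker fold of 2.10, and 5 of them exceeded 2.5. The 745 members with fewer than 50 IP reads in the list where they had fewer showed a median weaker fold of 4.15. At no input read, the lowest number of IP reads called in starved replicate 1 was 17, a fold of 3.71 in a Birc6 member. Members without input reads could thus not lie near the threshold. The higher folds at few reads follow in part from how peaks were called and are not a result about the members.

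The strongest folds among members with more than 3 input reads and at least 20 IP reads in both lists, a set of 1250, rested on 4 to 7 input reads. The highest weaker fold was that of a region at the bradykinin receptor gene Bdkrb2 (chromosome 12, 105593881 to 105594750), with 77 and 87 IP reads over 4 and 4 input reads and folds of 8.25 and 14.5. The 3′ end of 6430548M08Rik held 101 and 84 IP reads over 5 and 7 input reads (folds 8.65 and 8). Ccdc127 held 91 and 56 IP reads over 5 and 5 input reads (folds 7.80 and 7.47). The last exon of Adcy1, an adenylyl cyclase gene, held 112 and 61 IP reads over 5 and 6 input reads (folds 9.60 and 6.78). The other 4 were at Hdac4, which encodes a class IIa histone deacetylase, Pou3f3, a POU-domain transcription factor gene, Syne3, which encodes a nesprin of the nuclear envelope, and Lrrc8e, a subunit of volume-regulated anion channels. Their weaker folds lay between 6.08 and 6.54. A normal peak lay at 1 to 571 bp from 7 of these 8 regions, and the exception was Syne3. These regions therefore mostly lay close to sequence that was also called under normal conditions.

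Proximity to normal peaks was common over the members. The median distance from a member to the nearest normal peak was 1991 bp, and 675 members (35.5%) lay within 1000 bp of one. Regions called in starved replicate 1 alone and in starved replicate 2 alone lay within 1000 bp of a normal peak in 29.8% and 30.8% of cases. The members fell in 1301 genes, out of 7247 genes with any region (18%). Of the 1301 genes, 1163 (89.4%) had a peak elsewhere in a normal list and 610 (46.9%) had a region called in all 4 lists. Of the 6459 genes with any region in a starved list, 77.8% had a normal peak and 34.8% had a region called in all 4 lists. The deposited nearest-gene name was that of the overlapped gene for 59.6% of the 1863 members placed on a gene, so genes are given here by overlap with the annotation.

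The remaining 138 genes, holding 150 members, had no normal peak. The 8 genes with the most IP reads summed over their members are described here, chosen after the values were seen, and include Cdkn2b, which is given below. Rasa1, which encodes a GTPase activator that turns off RAS, held 963 and 1556 IP reads over 205 and 465 input reads in its first exon, with folds of 2.01 and 2.23. Mesd, a chaperone of LDL receptor-related proteins, held 1804 and 482 IP reads over 376 and 159 input reads in its 3′ untranslated region (folds 2.06 and 2.02), over peaks of 1340 and 610 bp. The gene model Gm17111 held 723 and 1774 IP reads over 143 and 416 input reads (folds 2.17 and 2.84). Another gene model, Gm44759, held 330 and 310 over 64 and 68 (folds 2.21 and 3.04). The deposited names of these 2 regions are 1700001K19Rik (intron 72 of 76) and Rnf40 (exon 5 of 20). A normal peak lay 1351 bp from the first and 411 bp from the second. For these 2 the absence of a normal peak therefore depends on the gene assigned by overlap. Bcar3, an adaptor of integrin signaling, and the uncharacterised gene C530008M17Rik each had 3 members. In Bcar3 the 3 regions held 49 to 139 IP reads in starved replicate 1 and 50 to 212 in starved replicate 2, with folds from 2.32 to 7. Sart3, a factor of spliceosome recycling, had 2 members with folds from 2.31 to 2.5.

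The genes named here for having the most members had more exon sequence than the median gene with 1 member. Kif1b, a kinesin motor gene, and Herc2, which encodes a giant ubiquitin ligase, had 9 members each. Birc6, an inhibitor of apoptosis with ubiquitin-conjugating activity, and Smg1, the kinase of nonsense-mediated decay, had 7 each. Gtf3c1, a subunit of the RNA polymerase III factor TFIIIC, had 6 and was taken before 7 further genes with 6 by its reads. The annotated exons of the first 4 of these genes span 14983 to 15837 bp, against a median of 4938 bp in the 949 genes with 1 member and 6598 bp in the 352 genes with several. Those of Gtf3c1 span 6961 bp, and Tecpr1, another gene with 6 members, has 5106 bp of exons. In Kif1b the IP reads of the 9 members ran from 64 to 478 in starved replicate 1 and from 82 to 492 in starved replicate 2, with folds from 2.05 to 4.23. In Herc2 they ran from 48 to 104 and from 46 to 136, with folds from 2.14 to 5.14. Herc2 also had 8 regions called in all 4 lists, whereas Kif1b had 1.

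By the deposited annotation, 1006 members (52.9%) lay in exons, 339 (17.8%) in introns, 194 (10.2%) in 3′ untranslated regions, 128 (6.74%) at promoters and transcription start sites and 97 (5.11%) in 5′ untranslated regions. Among regions called in all 4 lists the shares were 56.4%, 11.8%, 14.3%, 5.06% and 6.33%, and over all regions 45.7%, 23.6%, 12.5%, 5.89% and 3.88%. The share in 3′ untranslated regions was lower in the members than in the common regions and the share in introns was higher. In regions called in both normal lists only, 18.7% lay in introns and 16.2% in 3′ untranslated regions. The higher share in introns was therefore not particular to the members. The members' share in 3′ untranslated regions varied with other choices, for which the common regions were not recomputed. When a fold of at least 4 was required in every list, the rule gave 742 regions, which are not a part of the 1900 members. Of these regions 15.4% lay in 3′ untranslated regions. Without replicate 2, with regions called in starved and not in normal replicate 1, the share was 14.3%, and without replicate 1 it was 9.24%. Annotation follows 1 peak of each region, and with the annotation of the highest-fold peak 43.5% of members lay in exons and 27.9% in introns. Regardless of the class, 93.8% of the members overlapped an annotated exon of some gene by 1 bp or more, against 97.9% of regions called in all 4 lists and 89.9% of all regions. The overlap could be small. Exons made up 10.2% of the Col5a1 member and 13.7% of the Rictor member, both annotated as exon, and 100% of the Foxo1 member. Members in 3′ untranslated regions had median folds of 4.80 and 3.96 and those in exons of 3.47 and 2.88, at 67 and 66 against 85 and 99 IP reads. By the detailed annotation 9 members (0.474%) lay in LTR elements, 8 (0.421%) in LINEs and 8 (0.421%) in SINEs, against 0.786%, 0.502% and 1.10% of all regions and 0.378%, 0.0302% and 0.423% of regions called in all 4 lists.

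Pathway genes were present among the members at shares that varied around the 18% of all genes with a region. Of the autophagy machinery, 7 of 32 genes with a region held a member (21.9%). They were Atg2a and Atg2b, lipid transfer proteins of autophagosome growth, Atg13 of the ULK1 complex, Pik3r4, a subunit of the class III PI3-kinase, Fnip2, a partner of folliculin, and the FYVE-domain genes Zfyve1 and Zfyve26. A region in exon 3 of Atg2a held 418 and 230 IP reads over 84 and 66 input reads (folds 2.13 and 2.32). A region in exon 5 of Zfyve1, whose product DFCP1 marks the sites of autophagosome formation, held 317 and 189 IP reads over 54 and 62 input reads (folds 2.52 and 2.03). The other 5 genes held 42 to 183 IP reads in starved replicate 1 and 18 to 155 in starved replicate 2 in their member with most reads. Fnip2 had no input read in either list, so that its folds of 9.17 and 4.9 are lower bounds.

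Of the FOXO and insulin response genes, 5 of 22 held a member (22.7%). Sesn1, a sestrin that restrains mTORC1, held 128 and 82 IP reads over 12 and 15 input reads at its start site (folds 4.57 and 3.64). Rictor, a subunit of mTORC2, held 74 and 64 IP reads over 11 and 15 input reads in exon 2 (folds 2.88 and 2.84). The 3′ untranslated region of Foxo1, a FOXO factor itself, held 57 and 89 IP reads over 6 and 17 input reads (folds 4.07 and 3.49). Bcl6, a transcriptional repressor, held 56 and 57 IP reads over 6 and 12 input reads (folds 4 and 3.17). Fbxo32, the muscle-atrophy ubiquitin ligase atrogin-1, held 41 IP reads over 2 input reads in starved replicate 1 and 1299 over 360 in starved replicate 2. The peaks of Fbxo32 covered 200 bp and 780 bp, so its reads do not refer to the same length in both lists. For the other 4 genes of this list the starved replicates lay much closer to each other in IP reads.

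Of the BCL2 family, 3 of 10 genes held a member (30%), namely Bcl2l1, Bcl2l2 and Bmf. The 3′ untranslated region of Bcl2l2, which encodes the anti-apoptotic protein BCL-W, held 430 and 160 IP reads over 87 and 47 input reads (folds 2.12 and 2.27). Exon 3 of Bmf, a pro-apoptotic BH3-only gene, held 101 and 190 IP reads over 11 and 56 input reads (folds 3.93 and 2.26). Of the p53 and arrest genes, 2 of 15 held a member (13.3%), Sesn1 and the cyclin-dependent kinase inhibitor gene Cdkn2b. The 5′ untranslated region of Cdkn2b held 790 and 493 IP reads over 130 and 153 input reads (folds 2.60 and 2.15), and Cdkn2b had no peak in either normal list.

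Of the ERK feedback genes, 4 of 17 held a member (23.5%): the MAP kinase phosphatase genes Dusp4 and Dusp5, the EGFR inhibitor gene Errfi1 and the ETS factor gene Etv5. Dusp5 held 728 and 988 IP reads over 144 and 316 input reads (folds 2.17 and 2.08). Errfi1 held 212 and 1109 IP reads over 42 and 366 input reads (folds 2.16 and 2.02), over peaks of 390 and 1620 bp, so its reads do not refer to the same length. Of the ATF4 stress response genes, 3 of 14 held a member (21.4%), Aldh1l2, a mitochondrial enzyme of folate metabolism, and the amino acid transporter genes Slc7a11 and Slc7a5. Aldh1l2 held 240 and 72 IP reads over 49 and 16 input reads (folds 2.10 and 3), and Slc7a11 held 41 and 45 over 3 and 8 (folds 5.86 and 3.75).

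In the remaining lists the share of genes with a member did not exceed 18.8%. Of the TGF-beta and BMP genes, 3 of 23 held a member (13%). These were the co-receptor gene Tgfbr3, with 205 and 304 IP reads over 39 and 83 input reads (folds 2.25 and 2.44), the BMP antagonist gene Nog, with 45 and 107 over 3 and 20 (folds 6.43 and 3.57), and the activin receptor gene Acvr2b. Of the serum immediate-early genes only Maff, a small MAF factor gene, of 30 genes with a region (3.33%) held a member, with 58 and 58 IP reads over 9 and 13 input reads (folds 2.76 and 2.97). Of the m6A writers, erasers and readers, Virma, a subunit of the methyltransferase complex, was the single gene of 12 (8.33%), with 110 and 103 IP reads over 21 and 32 input reads in the member with most reads (folds 2.24 and 2.15). None of the 14 NF-kB target and cytokine genes with a region held a member. The zinc finger genes named Zfp had members in 34 of 181 genes (18.8%), close to the share of all genes. By the deposited names in place of overlap, 5 p53 and arrest genes, 2 NF-kB genes and no m6A gene held a member. The same naming gave 5 autophagy, 2 BCL2 family and 29 Zfp genes, which are fewer than by overlap. It gave 6 FOXO and insulin response, 5 ERK feedback and 4 ATF4 genes, which are more. The counts of TGF-beta and BMP genes (3) and of immediate-early genes (1) stayed the same.

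**Figure D4:**
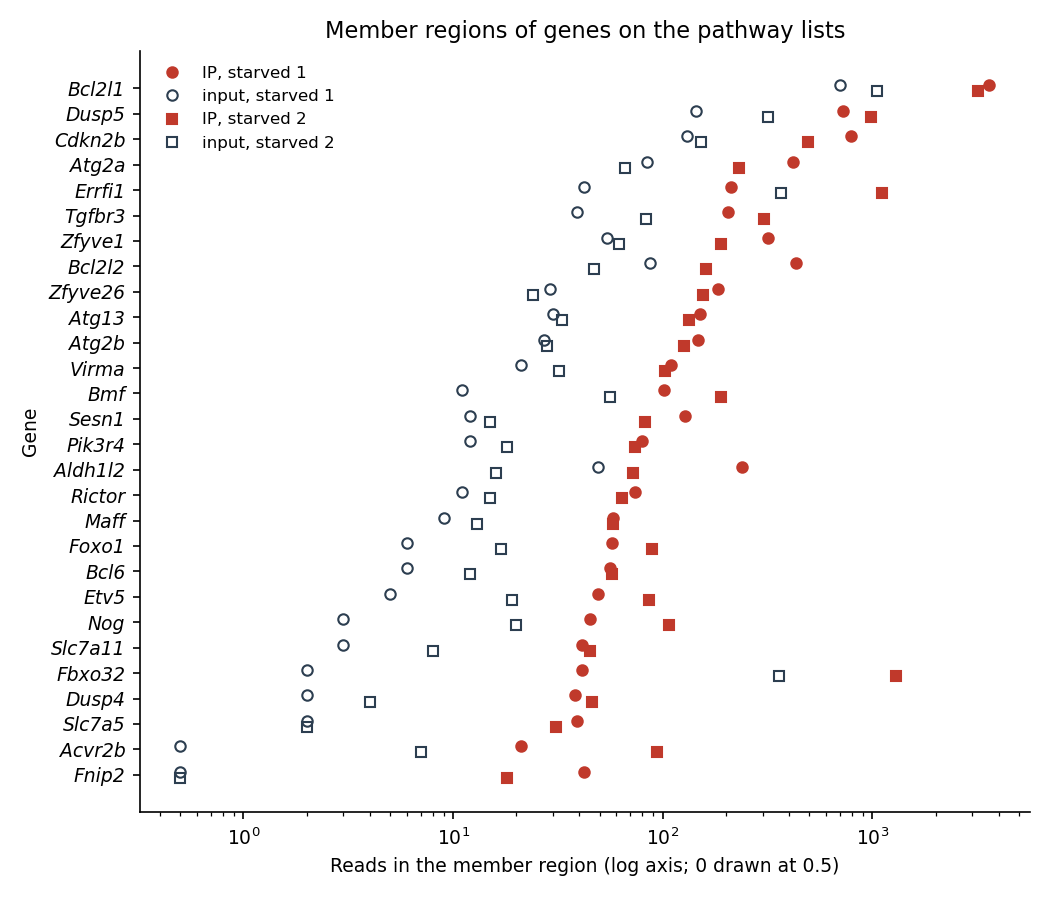
Reads in the member region with most reads for the 28 genes of the pathway lists that hold a member, on a log axis; filled red symbols are IP, open blue symbols input, circles starved replicate 1 and squares starved replicate 2. For Bcl2l1 the IP reads are 3611 and 3206, whereas for Fnip2 they are 42 and 18 with no input read, and Fbxo32 has 41 and 1299 IP reads in the 2 replicates.

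A member locus with near-identical copies stood apart and was named after its values were seen. The pseudogene locus Gm21451 on chromosome 14 had 3 members, each with a second copy of 100% identity in the genome, so their reads cannot be assigned to 1 place. The member with the deposited name Synb, at 69448751 to 69449420, held 2290 and 3246 IP reads over 0 and 2 input reads, and its folds of 500 and 883 are lower bounds. The other 2 members, named Entpd4b, held 4375 and 3534 IP reads in starved replicate 1 and 42 and 20 in starved replicate 2. None of the other members named had a second copy at 95% identity over 50% of its length.

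To ask whether the genes of the members changed in amount or in binding, their regions called in all 4 lists were compared between conditions. These regions have IP reads in every IP library and were not used to choose the members, although some have no input read in a library and they belong to the same RNAs and libraries. Reads were summed over the peaks that each list called within a region, with no adjustment for length. These peaks covered 6298 and 7296 kb in the normal lists and 7173 and 7650 kb in the starved lists. The changes given below can therefore mix read amount with covered length. Their genes were chosen for holding a region called in starved lists only, which can favor genes with more reads in starved MEFs. An excess of higher regions among them therefore cannot be separated from the choice. Of the 6621 regions called in all 4 lists, 1657 lay in 610 genes that hold a member. By edgeR's quasi-likelihood test with Benjamini-Hochberg adjustment over the whole table, 0 of the 1657 changed in IP reads, where the background was 0% in each direction. At an unadjusted p under 0.05, 108 were higher in starved MEFs (6.52%) and 23 were lower (1.39%), against 4.35% higher and 4.09% lower over all 6621. DESeq2 called 25 higher (1.51%) and 4 lower (0.241%), against 0.936% and 1.33% over all. The median log2 change was 0.12 in these regions and 0.01 over all regions called in all 4 lists.

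Input reads behaved in the same way, but they were counted only within the peaks called from the IP of the same list. A longer peak adds reads to both, so this likeness does not by itself show a change in RNA amount. Of 1649 regions tested, edgeR called 0 changed (background 0% in each direction), with 105 higher (6.37%) and 24 lower (1.46%) at an unadjusted p under 0.05, against 4.26% and 3.58% over all. DESeq2 called 20 higher (1.21%) and 4 lower (0.243%), against 0.895% and 1.18%. The median log2 change was 0.15, against 0.03 over all. More cells with an RNA and more RNA per cell cannot be told apart in bulk samples. The IP/input ratio could be compared only in regions with a fold of at least 2 in all 4 lists, so regions whose ratio moved across that threshold are left out of this comparison. For the ratio, edgeR called 1 region higher and 0 lower, which is the only call over all 6621 regions (0.0151% higher and 0% lower), with 17 higher and 35 lower at an unadjusted p under 0.05 (1.48% and 1.54% over all), and DESeq2 called 1 higher and 0 lower. The median log2 change of the ratio was -0.02. The single call was at the duplicated locus Gm21451, where the log2 ratio rose by 7.32 ± 0.66 (SE, adjusted p = 5.2e-05). There the IP libraries of normal MEFs held 1112 and 185 reads and those of starved MEFs 1813 and 2464, and the input reads were 369 and 18 against 1 and 3. The change in ratio rests on few input reads in starved MEFs.

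The regions with the lowest unadjusted p for IP reads were named after their values were seen. Their reads were also summed over the peaks called in each list, so a change can include a change in covered length. A region of Bmf outside its member held 28 and 37 IP reads under normal conditions and 2743 and 1751 under nutrient deprivation, a log2 change of 5.42 ± 0.38 (SE; edgeR adjusted p = 0.10). Its input reads were 0 and 1 against 448 and 356, so that input reads were also higher. At the start site of Gm29100, a gene model, IP reads were 13 and 11 against 446 and 246 (log2 change 4.13 ± 0.51, edgeR adjusted p = 0.22) and input reads were 0 and 0 against 49 and 37. In the 3′ untranslated region of Tsc1, a subunit of the complex that inhibits mTORC1, IP reads were 57 and 97 against 906 and 1138 (log2 change 3.07 ± 0.31, edgeR adjusted p = 0.21) and input reads were 10 and 39 against 148 and 309. In Dtx4, a Deltex ubiquitin ligase gene, they were 57 and 117 against 833 and 869, with input reads of 10 and 35 against 123 and 177. In Gpr157, an orphan receptor gene, IP reads were 114 and 128 against 1214 and 815 and input reads were 18 and 26 against 118 and 101. DESeq2 called all these regions higher in both IP and input reads. They were picked by a low p for IP reads, so the separation of their IP reads follows from the choice. Zfyve1 had 5 regions called in all 4 lists, of which DESeq2 called 4 higher in IP reads; in its 3′ untranslated region they were 201 and 252 against 1489 and 895 (edgeR log2 change 1.71, adjusted p = 0.36).

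Some genes with a member moved the other way. In an intronic region of Zfp451, IP reads were 165 and 546 under normal conditions and 63 and 41 under nutrient deprivation, a log2 change of -3.38 ± 0.61 (SE; edgeR adjusted p = 0.32), and input reads were 39 and 208 against 3 and 7. In Notch1, the receptor gene, IP reads were 284 and 322 against 152 and 167 (log2 change -1.62 ± 0.27, edgeR adjusted p = 0.27). In an exonic region of the MAP kinase phosphatase gene Dusp4 the IP reads were 3790 and 3934 against 1852 and 3553 and the input reads 983 and 1657 against 362 and 645, with a log2 change of -1.31 ± 0.24 for input reads (edgeR adjusted p = 0.26). DESeq2 called Zfp451 in both, Notch1 in IP reads and Dusp4 in input reads. The Dusp4 member itself, in an intron, held 38 and 46 IP reads over 2 and 4 input reads in starved MEFs (folds 8.13 and 7.67), so that a gene whose other regions had fewer reads under nutrient deprivation also gained a called region.

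**Figure D5:**
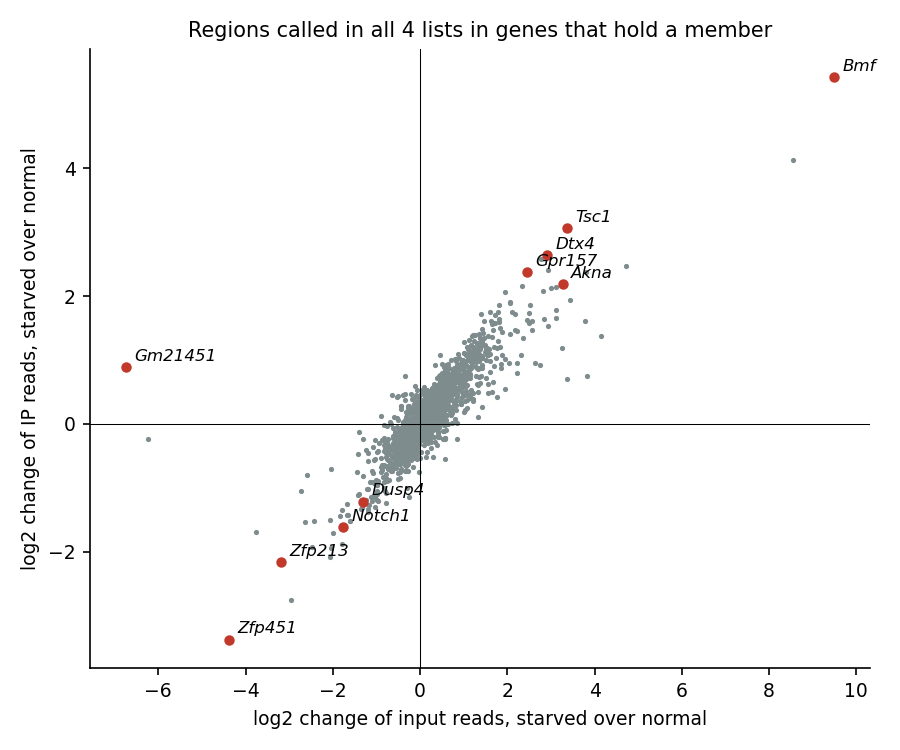
Log2 change from normal to starved MEFs of input reads (horizontal axis) and of IP reads (vertical axis), each point being a region called in all 4 lists in a gene that holds a member. Zfp451 is lowest in IP reads at -3.38, Bmf is highest at 5.42 with a larger change in input, and the labelled region of Gm21451 is higher in IP and lower in input.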

How the data were processed

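YTHDF3 RIP-seq libraries (4 IP and 4 input) were analysed from 4 peak lists. The authors used Trimmomatic for trimming, TopHat2 2.0.13 (version from the submitters' processing notes) for alignment to mm10, diffReps for peaks of each IP library over input, and HOMER for annotation. The authors deposited for each peak a signal in IP and input, which is reads multiplied by 1 factor, except for normal replicate 2, where they deposited counts. They also deposited the log2 of the IP/input ratio, which was not used, and the p-value of diffReps, used in 1 alternative. Columns of the best window within each peak were not used either. The spacing of the values gave each factor, and dividing by it gave reads, of which 100% came out whole within 0.1 read. For IP values the factor is the inverse of the input factor. Each list was assumed to use the input library with its own condition and number.

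A region's fold is its summed IP value over its summed input value, raised to at least 3. Genes are those of the GENCODE M21 basic annotation with most exon overlap, otherwise the gene body. Overlaps were taken with bedtools 2.31.1, sequence from mm10 with pysam 0.24.0, and copies searched with blastn 2.17.0 at 95% identity over at least 50% of a region. The tests across regions called in all 4 lists used edgeR 4.0.16 (quasi-likelihood, TMM, regions with at least 10 summed reads, Benjamini-Hochberg, threshold 0.05) in R 4.3.3, the ratio with a term for each IP library and its input, and with DESeq2 1.42.0 and limma 3.58.1 as alternatives. On simulated data with 200 of 6621 regions changed 2.5-fold, edgeR recovered 14 for IP reads and 167 for the ratio, with 1 and 10 false calls, and 3 of 200 for input reads among 6584 regions. Library depth is unknown because reads outside peaks are not in the lists; the sums over regions called in all 4 lists stand in for it in the tests. With 2 replicates per condition the smallest exact permutation p is 0.333, so none was used, and p-values measure only the spread between these samples.

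The members and the gene lists were chosen with earlier results of these data known. Named are the 10 members with most IP reads in the starved list where they have fewer, the 8 with the highest weaker fold among those with over 3 input and at least 20 IP reads in both lists, the 5 genes with most members, all list genes with a member, the regions next to the threshold, and the edgeR calls. Genes outside this rule are marked in the text. Alternatives covered thresholds, merging, read filters, annotation, normalization, the replicate block and leaving out each replicate; limma and the scaling of starved reads were chosen after seeing the data. Other steps ran in Python 3.11.15 (numpy 2.4.6, pandas 2.3.3, matplotlib 3.10.9, scipy 1.17.1).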

Additional observations from a re-analysis of the deposited data

How the results depend on the processing

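The number of members kept within 1.5 times of 1900 when peaks needed a deposited p under 0.0001, when regions were merged over gaps of up to 500 bp, when the input was raised to 3 whole reads, with at least 20 IP reads in both starved lists, and when starved reads were scaled to the normal lists, a check added after seeing the data. With a fold of at least 4 in every list it was 742, their mean median fold was 5.61 against 3.41, and the shares were 41.9% in exons, 20.4% in introns and 15.4% in 3′ untranslated regions. With a single replicate (called in the starved and not in the normal list) it ranged from 9841 to 11300, since fewer lists have to agree. Those regions had median folds from 3.41 to 3.86, with 43.2% to 44.8% in exons, 24.6% to 25.4% in introns and 9.24% to 14.3% in 3′ untranslated regions. With the annotation of the highest-fold peak 43.5% of members lay in exons and 27.9% in introns. GGAC was found in 39.0% of members within 100 bp and in 83.7% over the whole region, as the window changes.

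In the regions of genes that hold a member, edgeR's count of 0 for IP reads held in every setting except DESeq2, with 25 higher and 4 lower. For input reads DESeq2 called 20 higher and 4 lower, limma called 1 higher (Bmf), and leaving out a replicate gave 0 to 1 in each direction, with the calls at Bmf and Gm21451 made without normal replicate 2. The ratio call at Gm21451 held in every setting. Limma called 1 region lower in the ratio (Bmf). Leaving out a replicate gave 1 to 2 higher, with the second region, also of Gm21451, called without normal replicate 1, and 0 to 1 lower, which was Bmf without starved replicate 1 and without starved replicate 2. The cause of these differences was not tested. Replicate numbers are shared between conditions, but the labels name no shared culture. The difference between replicates 2 and 1 correlated between the conditions with r = 0.42 for IP and 0.37 for input reads over 6621 regions, and with only 2 numbers this does not pair the samples. With the replicate block, 2 regions were called higher (both of Gm21451) and 2 lower (Bmf and Mmp28) in the ratio, and 0 in IP reads and in input reads.

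Of the members, 1739 had at least 20 IP reads in both starved lists. In simulated data on regions called in all 4 lists, edgeR recovered 14 of 200 changes of 2.5-fold in IP reads and 3 of 200 in input reads, so a count of 0 does not show that the amounts were equal.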
